A study of Mus musculus with 12 samples.

Results

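The 10 genes described here encode the iron hormone hepcidin (Hamp), the proteins that read the iron state for it (Tfr2, Hfe), the carriers that bring iron into cells (Trf, Tfrc), the exporter and its ferroxidase partner (Slc40a1, Cp), the heavy ferritin chain (Fth1) and the metalloreductases Steap2 and Steap3. They were taken by gene symbol, and all 10 were present among the 16703 genes measured in whole liver and the 16273 genes measured in liver sinusoidal endothelial cells (LSEC). Steap2 was chosen by its measured values, a higher level in NASH LSEC than in chow LSEC, so its LSEC values are given as a description with no test.

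RNA-seq was done on C57BL/6 mice with nonalcoholic steatohepatitis (NASH) or without it (chow), in 4 groups of 3 libraries each: NASH whole liver, chow whole liver, NASH LSEC and chow LSEC. The labels name the NASH diet as D09100301, fed for 36 weeks, in a protocol that is attached to every sample, chow samples included. They give no age or sex. For LSEC, the non-parenchymal cell preparation was cleared of CD11b+ cells and CD146+ cells were then collected on magnetic beads. The labels do not say that replicates came from separate animals, so the p-values below measure the spread between these samples, which may be technical. LSEC libraries are numbered by position in the table, as names only.

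Hepcidin is a peptide hormone that hepatocytes secrete. It binds ferroportin, the iron exporter encoded by Slc40a1, and causes its breakdown, so that high hepcidin keeps iron inside cells and out of the plasma. Its transcription is driven by bone morphogenetic proteins, largely made by LSEC and read by SMAD factors in hepatocytes, and by interleukin-6 through STAT3. Iron in the plasma travels on transferrin (Trf) and enters cells through the transferrin receptor (Tfrc), after which a STEAP reductase turns ferric into ferrous iron in the endosome.

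Iron also sets the level of several of these proteins after transcription, through hairpins in their mRNAs called iron-responsive elements. Such an element has an unpaired C below a short stem and a CAGTGN loop, and iron regulatory proteins bind it when iron is low. A 5′ UTR element then blocks translation, while 3′ UTR elements protect the mRNA from decay. A search of the GENCODE M21 transcripts (mm10) looked for a 5-pair upper stem, at least 4 of 5 lower-stem pairs and the loop CAGTGN. The bulge between the stems could be a single C or TGC opposite a C. The search found an element in 3 of the 10 genes, each with a single C. Across all coding genes it found one in 30 of 21901, or 0.137%. The elements are shown because they are the stretches through which cell iron acts on the receptor, the store and the exporter; capitals mark the loop.
Fth1, 5′ UTR, chr19:9982733-9982759, plus strand: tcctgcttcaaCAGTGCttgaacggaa
Slc40a1, 5′ UTR, chr1:45925466-45925492, minus strand: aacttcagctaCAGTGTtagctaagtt
Tfrc, 3′ UTR, chr16:32631220-32631246, plus strand: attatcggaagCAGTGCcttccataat
Tfrc, 3′ UTR, chr16:32631599-32631625, plus strand: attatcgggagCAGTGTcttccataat
Tfrc, 3′ UTR, chr16:32631664-32631690, plus strand: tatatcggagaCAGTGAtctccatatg
Tfrc, 3′ UTR, chr16:32631711-32631737, plus strand: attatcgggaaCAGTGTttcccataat
Fth1 and Slc40a1 thus each carried 1 matching element before the coding sequence, and Tfrc carried 4 after it. A match is a description of these letters, and no binding was measured.

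The Hamp promoter is shown because both signals that drive hepcidin act there. The 160 bases before the RefSeq start site (GRCm38.p6, chr7:30944030-30944189, minus strand) are given with 2 motifs in capitals.
Hamp promoter: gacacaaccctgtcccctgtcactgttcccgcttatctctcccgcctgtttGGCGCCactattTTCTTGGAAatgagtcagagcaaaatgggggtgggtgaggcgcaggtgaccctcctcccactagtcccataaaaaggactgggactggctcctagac
The first, GGCGCC, is the core of a BMP response element and starts at -109. The second, TTCTTGGAA, matches the STAT pattern TTCNNNGAA and starts at -97. On either strand, GGCGCC was present in 7.35% and TTCNNNGAA in 4.36% of 32851 RefSeq promoter windows of this length.

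The deposited values are normalized reads, and the whole reads recovered from them totalled 47000197 to 57397720 in each liver library and 18527017 to 19402863 in each LSEC library. Hepatocyte marker sums varied widely between LSEC libraries. The 10 markers summed to 40488, 50592 and 84525 normalized reads in NASH LSEC, and to 16310.2, 91053 and 7479.6 in chow LSEC, so the second chow library held the most and the other chow libraries the least; none of the 10 was called in LSEC. Sinusoidal markers summed to between 292851 and 326300 in NASH LSEC, against 458969 to 476806 in chow LSEC, with 4 of 10 lower and 1 higher. Macrophage markers, Kupffer cell genes among them, summed to 54983 to 70319 in NASH LSEC and 12450.4 to 35145 in chow LSEC, with 5 of 10 higher. In liver, 7 of 10 hepatocyte markers fell and all 8 markers of recruited macrophages rose. Of the 10 Kupffer cell and macrophage markers, 6 rose and 2 fell in liver. Every measured marker had reads in both tissues. In bulk samples, fewer cells of a type and less RNA per cell cannot be told apart.

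Within liver, 4 of the 10 iron genes passed the test between NASH and chow (limma, Benjamini-Hochberg adjusted p under 0.05). Tfrc and Tfr2, the transferrin receptors, fell, and the reductase Steap3 and the ferroxidase Cp rose. The other 6, Hamp among them, were not called. Across all liver genes 46.0% were called, 25.0% higher and 21.0% lower, so 4 of 10 is close to the background and says nothing particular about iron genes. NASH and chow libraries did not overlap for 5 members, and 57.1% of all genes had groups that did not overlap. The median log2 fold change in liver was -0.03 over the members and 0.02 over all genes. Without the third chow liver, 3 were called higher (Steap2 added) and 3 lower (Hamp added). In LSEC, 1 of the 9 members tested was called, Cp, which rose; without the second chow library 2 were called, Hamp and Trf, and Cp was not. Across all LSEC genes 8.11% were called, 5.24% higher and 2.86% lower. Groups did not overlap for 4 of these 9 genes, against 31.9% of all genes. The median log2 fold change in LSEC was 1.28 over these 9 and 6.78e-05 over all genes.

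**Figure D1:**
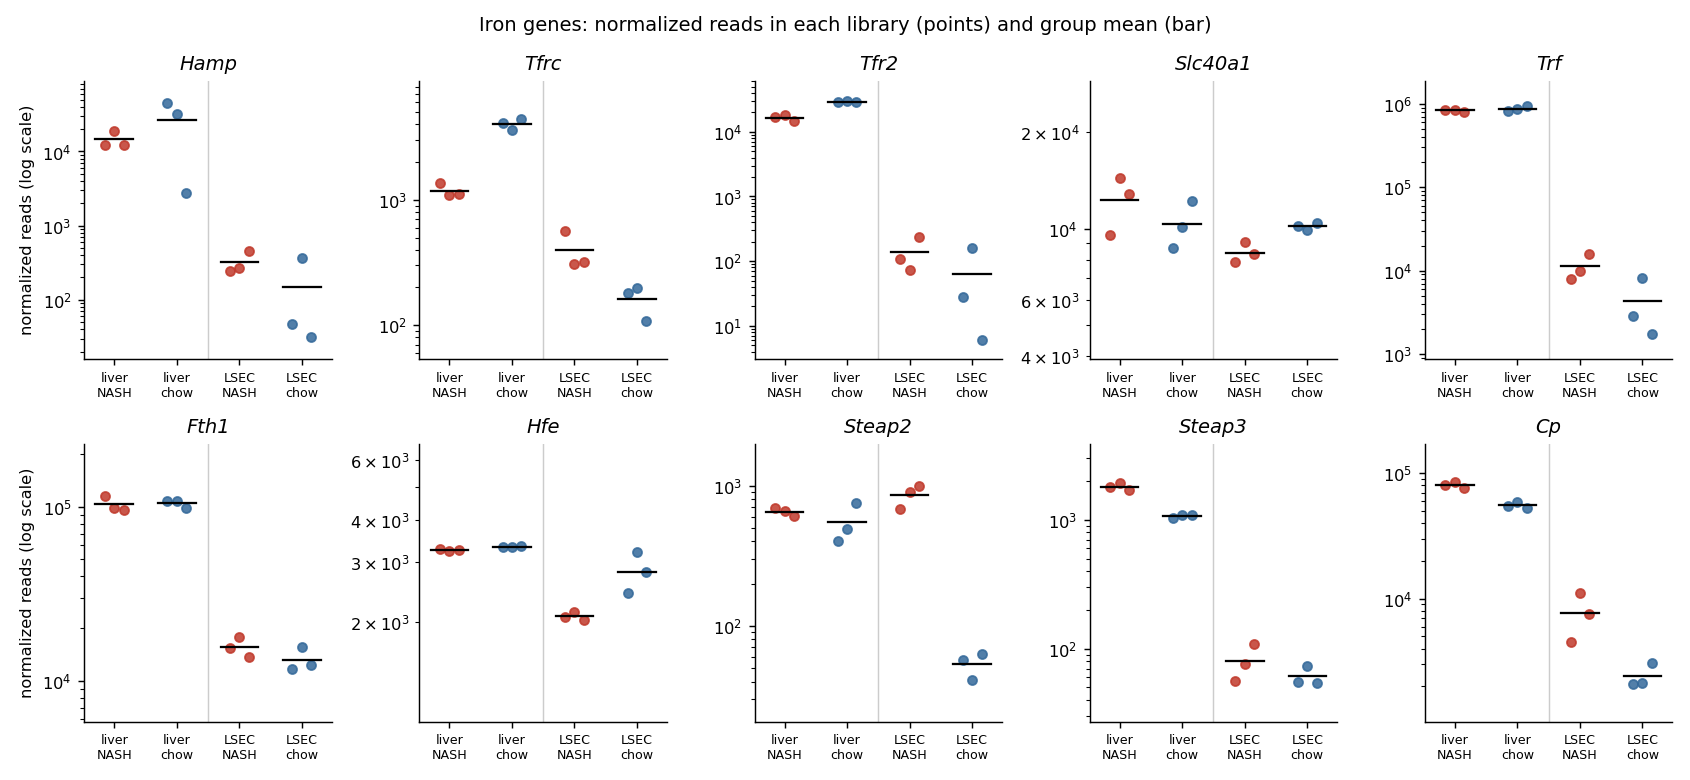
Normalized reads (log axis) of the 10 iron genes, 1 panel per gene; each point is a library, each bar a group mean, and the groups are NASH liver, chow liver, NASH LSEC and chow LSEC (3 libraries each). Hamp in chow liver spans 2755 to 44534, Tfrc in NASH liver stays at 1352 or below against 3595 or above in chow liver, and Steap2 in NASH LSEC is at 685 or above against 62.4 or below in chow LSEC. The liver and LSEC tables were normalized separately.

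Hamp (chr7:30942368-30944032, mm10) varied more between chow livers than between diets. It had 12251, 19028 and 12215 normalized reads in NASH livers, against 44534, 32064 and 2755 in chow livers. The first and second chow livers lay above every NASH liver and the third lay below every one. The ratio of means was 0.548, and the log2 fold change deposited by the authors was -0.87 (DESeq2 adjusted p = 0.498). NASH over chow, the log2 fold change of Hamp was -0.16 (adjusted p = 0.895 by limma, 95% interval -2.01 to 1.70, n = 3 each), so no diet effect could be told from the spread between libraries. A single library decided this. Without the third chow liver the log2 fold change was -1.41 with an adjusted p of 0.00115, while it was 0.59 without the first and 0.36 without the second. The highest chow liver held 16.2 times the normalized reads of the lowest, against 1.56 times among NASH livers.

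In LSEC, Hamp had 241, 269 and 458 normalized reads with NASH and 47.0, 369 and 31.7 on chow. The second chow library, the one with the most hepatocyte reads, lay among the NASH libraries, and the other two lay below all of them. Here the log2 fold change was 1.90 (limma adjusted p = 0.213, 95% interval -0.10 to 3.89), and without the second chow library it was 2.97 with an adjusted p of 0.0129. Set against albumin (Alb), a transcript of hepatocytes, Hamp had 8.66, 7.71 and 8.45 reads per 1000 Alb reads in NASH LSEC and 4.27, 5.99 and 5.47 in chow LSEC. The NASH LSEC ratios thus all lay above the chow LSEC ratios. All 6 ratios lay within those of the liver libraries, 0.659 to 11.5. That range is wide through the third chow liver alone, since every other liver lay at 5.83 or above. Alb itself had 27790, 34837 and 54248 normalized reads in NASH LSEC, against 11003, 61571 and 5799.9 in chow LSEC.

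Mice have a second hepcidin gene, Hamp2, whose coding sequence of 252 bases was 92.5% identical to the 249 bases of Hamp, so reads may have been split between the pair and both are uncertain. Hamp2 had 483, 136 and 151 normalized reads in NASH livers and 74.7, 105 and 146 in chow livers (limma adjusted p = 0.0815, not called). In LSEC it had 30.9, 21.5 and 57.6 with NASH and 3.13, 6.53 and 6.14 on chow. It rose there by 2.52 on the log2 scale (limma adjusted p = 0.0293), a call that was lost without any NASH library, the first chow or the third chow library (adjusted p of 0.0537 to 0.114). Hamp also lies over Gm44662 on the opposite strand, and the TruSeq v2 kit named for the liver libraries does not mark strand.

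Tfr2 (chr5:137569840-137587481), which binds iron-loaded transferrin on hepatocytes as a sensor for hepcidin, fell in NASH liver. It had 16814, 18109.9 and 14848 normalized reads in NASH livers, against 28750.5, 30400.2 and 28749 in chow livers. The groups did not overlap, and the ratio of means was 0.566 (log2 fold change -0.82 ± 0.10 SE, limma adjusted p = 0.000193). In LSEC it was scarce, with 107, 72.8 and 236 normalized reads with NASH and 28.2, 158 and 6.14 on chow. Those groups overlapped through the second chow library (log2 fold change 1.95, 95% interval -0.53 to 4.42, limma adjusted p = 0.291; 3.10 and 0.0557 without that library). Per 1000 Alb reads, Tfr2 stood at 7.57 to 8.99 in NASH livers and 6.87 to 7.45 in chow livers, so the NASH ratios were higher. Alb itself was lower in NASH livers, at a mean of 2025880 normalized reads against 4129700 on chow (limma adjusted p = 0.0993, not called). Every NASH liver lay below every chow liver in Alb, and this lower denominator raises the NASH ratio of any gene.

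Hfe (chr13:23702034-23710854), the haemochromatosis protein that moves between the transferrin receptors, had the narrowest ranges in liver. It ran from 3249 to 3292 normalized reads in NASH livers and from 3325 to 3360.4 in chow livers, with a log2 fold change of -0.03 (95% interval -0.20 to 0.13, limma adjusted p = 0.748). The groups did not overlap, with means of 3267 with NASH and 3340.4 on chow. In LSEC, Hfe ran from 2030.1 to 2138 with NASH and from 2436 to 3215 on chow, again with no overlap. The log2 fold change was -0.43 (limma adjusted p = 0.0884, not called), whereas DESeq2 on the recovered reads gave an adjusted p of 0.0401.

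Tfrc (chr16:32608920-32632794), the receptor through which most cells take up transferrin iron, differed between the tissues. It had 1352, 1095 and 1104 normalized reads in NASH livers, against 4066, 3595 and 4434 in chow livers. The highest NASH liver held fewer than the lowest chow liver, and Tfrc fell by 1.77 ± 0.11 SE on the log2 scale, to 0.294 of the chow mean (limma adjusted p = 5.33e-06). In LSEC it had 566, 307 and 321 normalized reads with NASH and 182, 198 and 107 on chow.

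Those LSEC groups did not overlap either, and the log2 fold change was 1.28 (95% interval 0.51 to 2.05). The limma adjusted p was 0.0587, which missed the threshold, whereas it was 0.0395 with library totals made equal, 0.00337 by DESeq2 and 0.00323 in the authors' deposited table. The difference between the tissues, liver minus LSEC, was -3.05 ± 0.35 SE (adjusted p = 0.000529 over 15766 genes). Of all genes 19.5% differed at this threshold, 7.99% with the higher fold change in LSEC, and Tfrc was the only one of the 9 iron genes tested to do so. Per 1000 Alb reads, Tfrc stood at 0.544 to 0.643 in NASH livers and at 0.827 to 1.06 in chow livers. Markers of dividing cells, which need iron and carry much Tfrc, summed to 2706 to 3034 in NASH LSEC and 1189 to 1411 in chow LSEC, with 3 of 8 higher. In liver all 8 rose, while Tfrc fell. Erythroid markers, of which 5 of 9 were measured in liver, summed to 3539 to 5036 in NASH livers and 6308 to 7817 in chow livers. The part of dividing or erythroid cells in the Tfrc result was not tested.

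Trf (chr9:103204001-103230444), the plasma iron carrier secreted by hepatocytes, did not differ detectably in liver. It ran from 802045 to 852515 normalized reads in NASH livers and from 813249 to 937553 in chow livers, and the groups overlapped (log2 fold change -0.07, 95% interval -0.70 to 0.56, limma adjusted p = 0.854). In LSEC it had 8015, 9804 and 15996 normalized reads with NASH and 2875, 8254 and 1741 on chow. The second chow library again lay among the NASH libraries and the others below (log2 fold change 1.64, limma adjusted p = 0.113; 2.27 and 0.0226 without that library; 0.0440 by DESeq2 with all libraries). Per 1000 Alb reads it stood at 281 to 295 in NASH LSEC and 134 to 300.2 in chow LSEC. The annotation places Gm20425 over the same strand of Trf, so the counting could have split their reads.

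**Figure D2:**
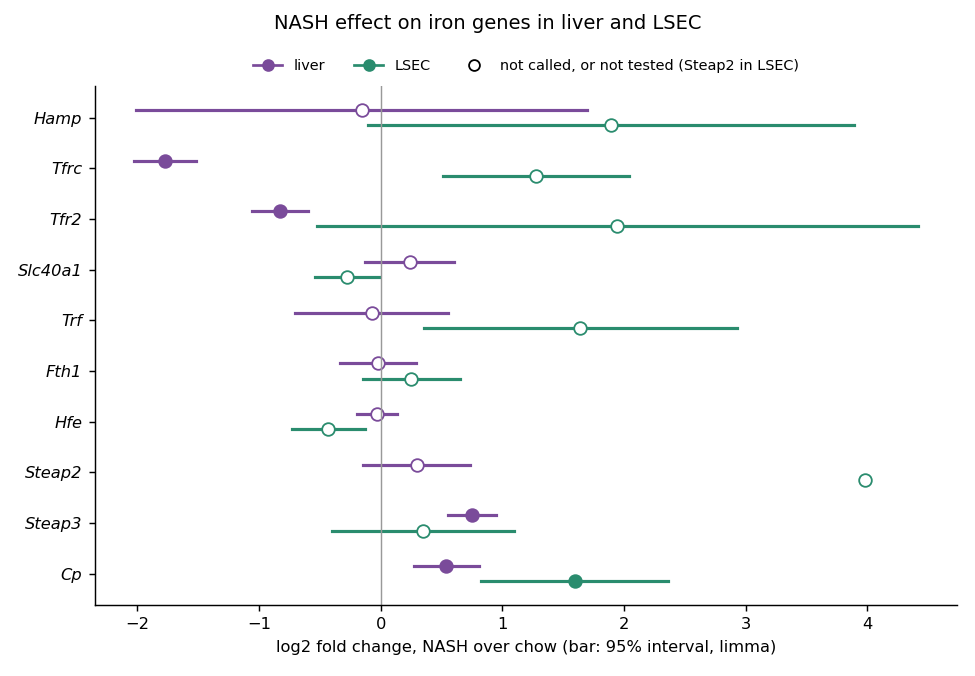
Log2 fold change of NASH over chow for each iron gene in liver and LSEC, with its 95% interval from limma; filled points were called at an adjusted p under 0.05, and Steap2 in LSEC was not tested and has no interval. Tfrc lies at -1.77 in liver and 1.28 in LSEC, Steap2 at 0.30 in liver and 3.98 in LSEC, and the widest intervals belong to Hamp and Tfr2.

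Slc40a1 (chr1:45908068-45926523), the ferroportin gene, was called in neither tissue. It had 9564, 14435 and 12825 normalized reads in NASH livers, against 8734, 10122 and 12209 in chow livers, with overlap (log2 fold change 0.24, limma adjusted p = 0.260). In LSEC it had 7852, 9063 and 8349 with NASH and 10228, 9914 and 10428 on chow. There every NASH library lay below every chow library, at 0.826 of the chow mean (log2 fold change -0.28, 95% interval -0.54 to -0.01, limma adjusted p = 0.175, not called). Per 1000 Alb reads, Slc40a1 stood at 154 to 1798 in LSEC libraries and 2.26 to 7.17 in liver libraries, so the lowest LSEC ratio was above the highest liver ratio.

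Cp (chr3:19957054-20009145), the ferroxidase ceruloplasmin that loads exported iron onto transferrin, was the member called in both tissues. It had 79914, 85598 and 75529 normalized reads in NASH livers, against 54497, 58894 and 52542 in chow livers. It rose by 0.54 ± 0.12 SE on the log2 scale, to 1.45 times the chow mean, with no overlap (limma adjusted p = 0.00504). In LSEC it had 4497, 11179.5 and 7574 normalized reads with NASH and 2095, 2135 and 3084 on chow.

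Cp in LSEC thus rose by 1.60 ± 0.33 SE on the log2 scale, to 3.18 times the chow mean (limma adjusted p = 0.0337). That call was thin. It held without the first NASH library, and it was lost without the second NASH (0.0856), the third NASH (0.119), the first chow (0.0704), the second chow (0.0649) or the third chow library (0.0734), with a log2 fold change of 1.28 to 1.94 throughout. Per 1000 Alb reads, Cp stood at 139.6 to 321 in NASH LSEC and 34.7 to 532 in chow LSEC, against 12.6 to 42.5 in liver. The difference between tissues, -1.06, was not called (adjusted p = 0.0625). Cp shares 13201 bases with Hps3 on the opposite strand.

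Fth1 (chr19:9980598-9985098), the ferritin chain that oxidizes iron for storage, did not differ detectably between diets. It ran from 96017 to 115089 normalized reads in NASH livers and from 98439.7 to 108286 in chow livers (log2 fold change -0.02, 95% interval -0.34 to 0.29, limma adjusted p = 0.902). In LSEC it ran from 13704 to 17967 with NASH and from 11644 to 15741 on chow (log2 fold change 0.25, limma adjusted p = 0.391). Ferritin is mainly set by translation through its element, which read counts of mRNA do not measure.

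Steap3 (chr1:120190757-120272705), the endosomal reductase best known from red cell precursors, rose in liver. It had 1779, 1941 and 1698 normalized reads in NASH livers, against 1039, 1086 and 1088 in chow livers. The groups did not overlap, and the rise was 0.75 ± 0.09 SE on the log2 scale, or 1.69 times the chow mean (limma adjusted p = 0.000156). In LSEC it was at the low end, with 56.0, 75.6 and 109 normalized reads with NASH and 55.4, 74.0 and 54.3 on chow (log2 fold change 0.35, limma adjusted p = 0.536).

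Steap2 (chr5:5664829-5694578), a plasma membrane and endosomal iron and copper reductase, was chosen for its LSEC values, which follow as a description. It had 685, 903 and 995 normalized reads in NASH LSEC, against 57.5, 41.3 and 62.4 in chow LSEC. Every NASH library held more than 10 times the highest chow library, the ratio of means was 16.0, and the log2 fold change was 3.98. In liver it had 693, 656 and 606 normalized reads with NASH and 405, 494 and 746 on chow. Those groups overlapped through the third chow liver (log2 fold change 0.30, limma adjusted p = 0.246; 0.54 and 0.0106 without it).

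Several marker sums of other cells were higher in the same NASH LSEC libraries as Steap2, besides those of macrophages and dividing cells given above. Markers of recruited macrophages summed to 15968, 50303 and 24190 in NASH LSEC and 6595, 7307 and 11364 in chow LSEC, with 4 of 8 higher. Stellate markers summed to 16971 to 27134 in NASH LSEC and 6384 to 12071 in chow LSEC, with 3 of 8 higher. Cholangiocyte markers summed to 10282, 46882 and 17284 in NASH LSEC and 4121, 4794 and 9372 in chow LSEC, with none of 5 called. Spp1 was counted both here and among the markers of recruited macrophages, so these sums share a gene and are not independent. The part of these cell types in the Steap2 values was not tested. Per 1000 Alb reads Steap2 stood at 18.3 to 25.9 in NASH LSEC and 0.671 to 10.8 in chow LSEC, against 0.105 to 0.330 over all livers, so each LSEC ratio exceeded each liver ratio.

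**Figure D3:**
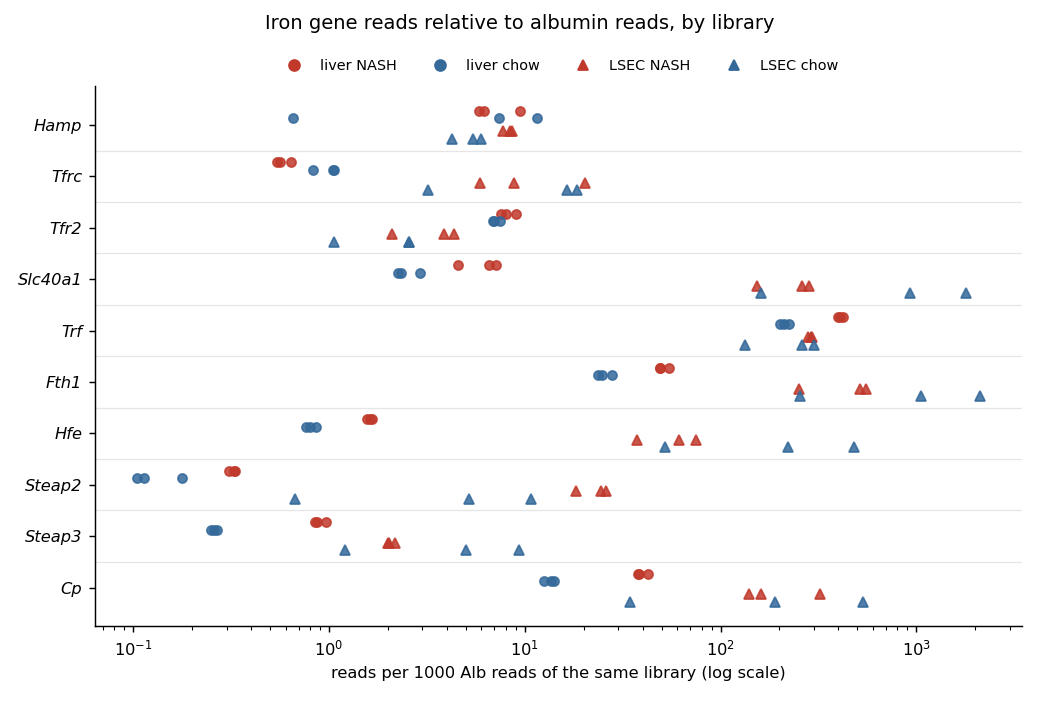
Reads of each iron gene per 1000 Alb reads of the same library (log axis); circles are liver and triangles LSEC libraries, NASH in red and chow in blue. Hamp in LSEC (4.27 to 8.66) falls inside the liver range (0.659 to 11.5), whose low end is the third chow liver alone. Slc40a1, Fth1, Hfe, Steap2, Steap3 and Tfrc have every LSEC library to the right of every liver library.

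Exon length here joins the exons of all annotated transcripts of a gene, 410 bases for Hamp, 3469 for Fth1 and 12144 for Steap2. Which transcripts were used was not measured, so ranks between genes depend on the annotation as well as on the level. Ranked by normalized reads per kb of exon within each group, Trf led in liver at 250492 with NASH and 263624 on chow. Hamp was next at 35361 with NASH and 64515 on chow, and its range overlapped that of Fth1 below it in both diets. Cp and Tfr2 changed places, with Cp at 8399 and Tfr2 at 3826 per kb in NASH livers, against Cp at 5782 and Tfr2 at 6757 per kb in chow livers, and without overlap in either diet. Steap3 and Tfrc did the same, with Steap3 at 316 and Tfrc at 191 per kb in NASH livers, against Steap3 at 187 and Tfrc at 652 per kb in chow livers. Steap2 came last with 53.7 per kb in NASH livers and 45.1 per kb in chow livers.

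Among LSEC, Fth1 led at 4530 per kb with NASH, where its range overlapped that of Trf below it, and at 3814 per kb on chow without overlap. Slc40a1 was the third in both, at 936 per kb with NASH, where it overlapped Cp below it. On chow it stood at 1132 per kb and overlapped Trf above it. Steap2 was seventh of the 10 at 70.9 per kb with NASH, overlapping Tfrc at 64.3 per kb, and last at 4.43 per kb on chow, below Steap3 at 10.7 per kb without overlap. The tables were normalized separately, so these levels are ranked within a tissue only.

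The nearest patterns over the 12 libraries were found as the smallest root mean square difference of log2 values, centred within each tissue, among 10961 genes. Tfrc was closest to Serpinb1a (0.292), Hsd11b1 (0.345) and Lipg (0.389), where the median gene was at 0.865. These 3 had liver log2 fold changes of -1.78, -1.24 and -2.17 and LSEC log2 fold changes of 1.67, 1.28 and 1.10. Slc40a1 was closest to Zfat (0.0794), Sgk3 (0.104) and Pcnxl4 (0.120) against a median of 0.329. Hamp was closest to Fgg (0.834), Fga (0.836) and Cyp7a1 (0.839), all expressed by hepatocytes, against a median of 1.42. Steap2 was closest to Sh3bgrl2 (0.580), Cd276 (0.589) and Tjp3 (0.594) against a median of 1.47, with LSEC log2 fold changes of 2.59, 2.56 and 2.60. All these genes were picked for their closeness, LSEC values included, so their fold changes follow from that choice and are a description only.

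Upstream of hepcidin, the BMP ligands Bmp6 and Bmp2 fell in both tissues. The pathway lists here were chosen by function, with earlier results of these data known. Smad6, Smad7, Atoh8, Socs3, Slc11a1, Slc11a2, Slc39a14, Scara5 and Cybrd1 were named after their values were seen. Bmp6, the ligand that follows iron stores, had 1800.1, 1779 and 2267 normalized reads in NASH LSEC, against 5801, 4711 and 6778 in chow LSEC, and fell by 1.56 ± 0.17 SE on the log2 scale (limma adjusted p = 0.00648). Bmp2, the other endothelial ligand, had 16734, 16765 and 19931 in NASH LSEC, against 34001, 39719 and 42448 in chow LSEC, and fell by 1.12 ± 0.15 SE (0.0118). No NASH library reached the lowest chow library for either. The Bmp2 call was lost without the second NASH (0.0512), the third NASH (0.0510) or the third chow library (0.0561). Sinusoidal markers were lower in the same NASH LSEC libraries, with 4 of 10 lower and 1 higher and a median log2 fold change of -0.68, and their part in the ligand values was not tested.

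In whole liver, Bmp2 fell by 1.38 ± 0.09 SE on the log2 scale, with 865 to 949 normalized reads in NASH livers and 2247 to 2438 in chow livers (limma adjusted p = 4.79e-06). Bmp6 had 254, 258 and 259 in NASH livers, against 583, 478 and 330.2 in chow livers, and fell by 0.81 (0.00740); the call was lost with library totals made equal (-0.39, 0.113). Among chow livers, the third was lowest in Hamp and in Bmp6, while the second was lowest in Bmp2 (2247 normalized reads). The third chow liver still held more Bmp6 than any NASH liver, though less Hamp than any of them. A link between ligand and Hamp levels was not tested.

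Among target genes of the BMP signal, Id1, Smad6 and Smad7 rose in liver, whereas Atoh8 (-0.09, limma adjusted p = 0.772; -0.39 and 0.0122 without the third chow liver) and Hamp itself (-0.16, 0.895) were not called. Id1, a direct SMAD target, had 798, 672 and 729 normalized reads in NASH livers, against 230.2, 339.9 and 231 in chow livers, and rose by 1.47 ± 0.17 SE on the log2 scale (limma adjusted p = 0.000121). The feedback inhibitors Smad7 (0.78, 0.00219) and Smad6 (0.59, 0.00555) rose as well, with no overlap between diets. In LSEC none of the 3 was called, with log2 fold changes of -0.52 for Id1, -0.19 for Smad7 and -0.54 for Smad6 (adjusted p of 0.0230 by DESeq2 for Smad6). The difference between tissues was called for each, at 1.99 for Id1, 0.97 for Smad7 and 1.14 for Smad6 (adjusted p of 0.00249, 0.00318 and 0.00118).

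**Figure D4:**
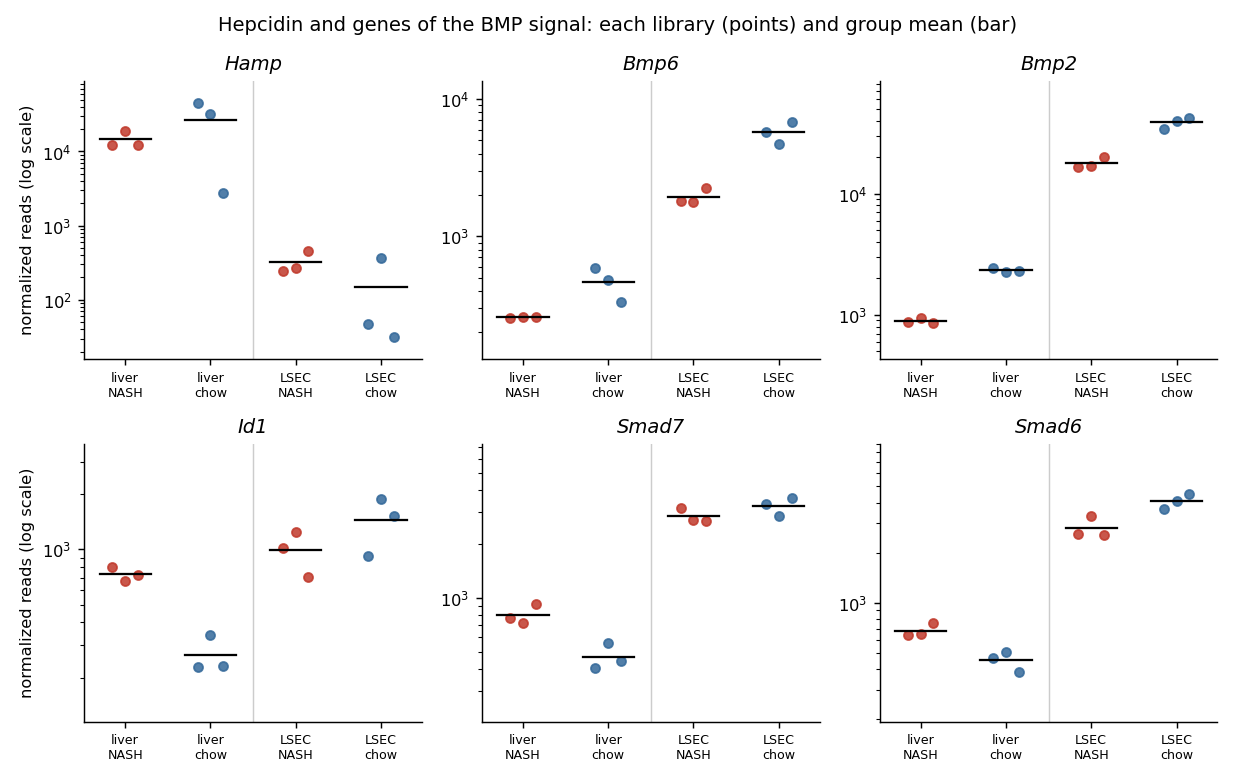
Normalized reads (log axis) of Hamp, the ligands Bmp6 and Bmp2 and the BMP target genes Id1, Smad7 and Smad6 in each library (points) with group means (bars), for NASH liver, chow liver, NASH LSEC and chow LSEC. The ligands lie lower with NASH in both tissues, whereas Id1 in liver lies at 672 to 798 with NASH and 230.2 to 339.9 on chow.

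Over the whole list of 21 genes of hepcidin signalling, 5 rose and 7 fell in liver, with a median log2 fold change of -0.17, where 25.0% of all liver genes rose and 21.0% fell. With equal totals this became 9 rising and 2 falling around a median of 0.24. Il6ra, the interleukin-6 receptor chain, fell by 1.35 (limma adjusted p = 0.000259), and Socs3, a STAT3 feedback gene, rose by 0.99 (0.00574). Hemojuvelin, the BMP co-receptor listed under its older symbol Hfe2, rose by 0.35 in liver (0.0106; 0.0522 without the first chow liver). In LSEC 1 rose and 2 fell, with a median of 0.03, where 5.24% of all LSEC genes rose and 2.86% fell. The one that rose was Hfe2, from few reads, with 33.8, 35.5 and 98.5 normalized reads with NASH and 5.22, 10.9 and 1.02 on chow. Its log2 fold change was 3.24 (0.0426), and the call was lost without any NASH library, the first chow or the third chow library (0.0727 to 0.149). Within each diet Hfe2 ranked the LSEC libraries as Alb did (27790, 34837 and 54248 normalized reads with NASH, 11003, 61571 and 5799.9 on chow). The second chow library held more Alb than any NASH library, but less Hfe2. The part of hepatocyte reads in the LSEC values of Hfe2 was not tested.

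Of 12 iron uptake genes and ferrireductases outside the 10 members, 7 rose and 2 fell in liver, and 5 rose and 1 fell in LSEC. Of all genes, 25.0% rose and 21.0% fell in liver, and 5.24% rose and 2.86% fell in LSEC. The list also held Heph, which is a ferroxidase. The list medians were 1.30 in liver and 0.24 in LSEC, against 0.02 in liver and 6.78e-05 in LSEC over all genes. Lcn2, an acute phase protein that binds iron-carrying siderophores, had 16998, 12338 and 12049 normalized reads in NASH livers, against 693, 979.8 and 407 in chow livers, and rose by 4.38 on the log2 scale (limma adjusted p = 3.92e-06). It rose by 3.77 in LSEC (0.0138; 0.0648 without the third NASH library). Slc11a1, the iron transporter of macrophage phagosomes, rose in liver (1.30, 0.000102) and in LSEC (1.73, 0.0377), the LSEC call being lost with edgeR (0.0509) and without any library except the first chow one (0.0706 to 0.123).

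Of the other reductases of this list, Steap4 and Steap1 rose in both tissues and Cyb561 in liver, and Cybrd1 was called in neither (0.23 with a limma adjusted p of 0.818 in liver, -1.84 with 0.0592 in LSEC, where DESeq2 gave 0.0486). Steap4 had 17055, 13664 and 14103 normalized reads in NASH livers, against 3561, 4976 and 6125 in chow livers, and rose by 1.64 (limma adjusted p = 8.70e-05). In LSEC it rose by 2.07 (0.0312), a call lost without any NASH library or the first chow library (0.0553 to 0.108). Steap1 was nearly absent from chow LSEC, with 33.8, 54.1 and 30.7 normalized reads with NASH and 1.04, 0 and 0 on chow, or 126 reads against 1. NASH over chow this came to 113 (19.9 to 4497 by counting error alone, 95%), and the gene was called (limma adjusted p = 0.00493). In liver it rose by 1.58 (0.0270), a call lost without the first NASH, the third NASH or the second chow liver (0.0947 to 0.102). Cyb561 rose in liver by 1.46 (3.09e-05) and was not called in LSEC (0.38, 0.443).

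Of the transporters of iron that is not bound to transferrin, Slc39a14 and Slc39a8 fell in liver, whereas Slc11a1 rose, as given above, and Slc11a2 was not called (-0.11, limma adjusted p = 0.426; 0.31 and 0.0452 with equal totals). Scara5, a ferritin receptor, rose there by 1.73 (0.0187), a call lost without the first NASH, the second NASH or the third chow liver (0.0550 to 0.0643). Slc39a14 fell in liver by 0.52 on the log2 scale (limma adjusted p = 0.0205), with 7480.4 to 10601 normalized reads in NASH livers and 10215 to 14311 in chow livers. In LSEC it rose by 1.12 (0.0397), and the difference of -1.65 between tissues was called (0.00227). Slc39a8 fell in LSEC by 0.97 (0.0103) and in liver by 0.42 (0.0175). The 2 liver calls were lost with library totals made equal (Slc39a14 at -0.11 with an adjusted p of 0.530, Slc39a8 at -0.0020 with 0.989) and without some single libraries (0.0619 to 0.0871 for Slc39a14, 0.0549 to 0.0663 for Slc39a8). In LSEC, Slc39a14 lost its call without any library except the first NASH one (0.0599 to 0.145), and Slc39a8 without the third NASH (0.0560) or the third chow library (0.0506).

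**Figure D5:**
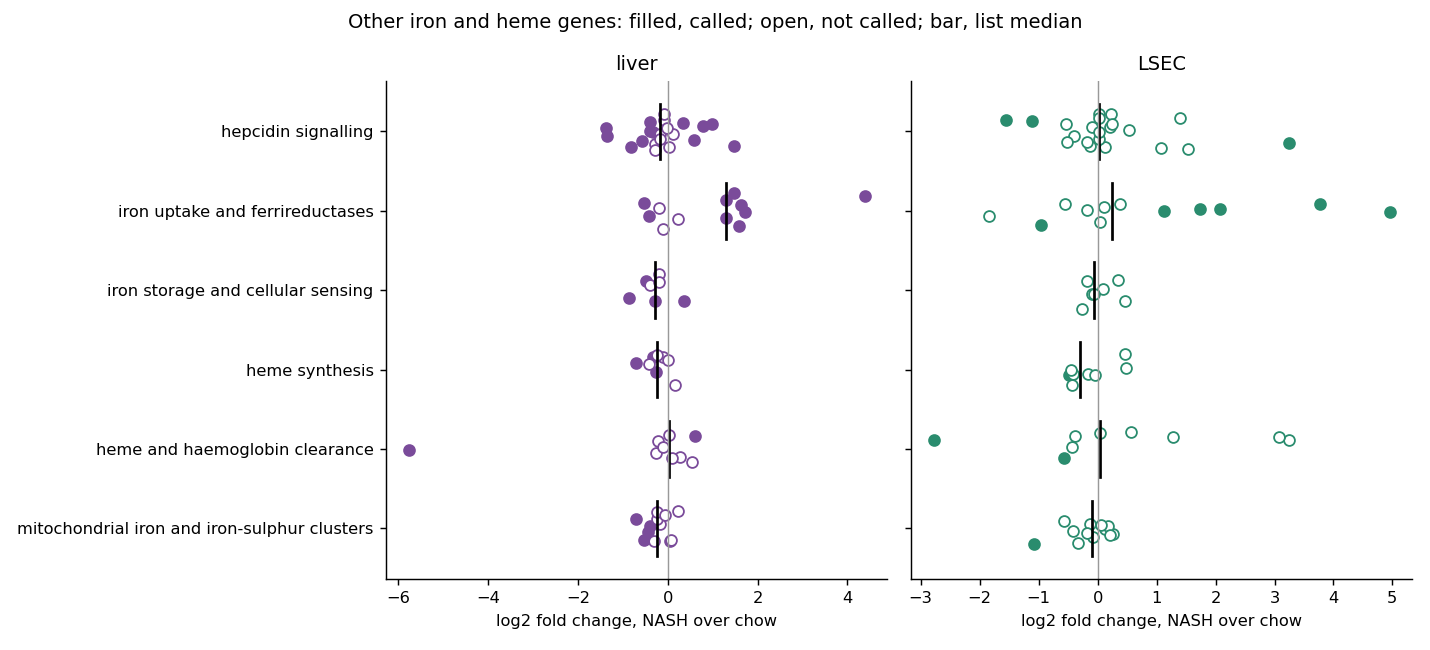
Log2 fold change of NASH over chow for the genes of 6 iron and heme lists, in liver (left) and LSEC (right); each point is a gene, filled where called by limma at an adjusted p under 0.05, and the bar is the list median. The uptake and reductase list has the highest median in both tissues, 1.30 in liver and 0.24 in LSEC, and Cd163 stands alone at -5.75 in liver.

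Of the 7 measured genes of iron storage and sensing, 1 rose and 3 fell in liver, and none was called in LSEC. With equal totals 2 were higher and 1 lower in liver. As deposited, 25.0% of all liver genes rose and 21.0% fell, and 8.11% of all LSEC genes were called. Ireb2, an iron regulatory protein that binds the elements shown above, had 3630.2 to 5399.6 normalized reads in NASH livers and 7573 to 8165 in chow livers, and fell by 0.87 (limma adjusted p = 0.000711). Fbxl5, which targets that protein for breakdown, rose by 0.36 (0.00530). Ncoa4, the ferritin autophagy receptor, fell by 0.49 (0.0113), a call lost without the first NASH liver (0.0525) and with equal totals (-0.07, 0.641). In LSEC the smallest adjusted p belonged to Aco1 (0.34, 0.123), Ncoa4 (0.47, 0.217) and Ftl1 (-0.26, 0.560).

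Heme synthesis had 3 of 8 genes lower in liver and 1 of 8 in LSEC, with none higher. With equal totals 3 were higher and none lower in liver, and none was called in LSEC. The share called in liver was below the 46.0% of all liver genes. Across all LSEC genes 8.11% were called. In liver, Cpox fell by 0.70 (limma adjusted p = 0.00177) and Fech by 0.34 (0.0187). With equal totals Cpox stood at -0.28 (0.0598) and the sign of Fech turned (0.08). Fech was also lost without the third NASH (0.0622) or the third chow liver (0.0559). Fech, which puts iron into the porphyrin ring, fell in LSEC by 0.48 (0.0429), a call lost without any 1 library (0.0676 to 0.153), with edgeR (0.0513) and with equal totals (0.106). Alas1 (0.47, 0.144) and Urod (-0.44, 0.159) were not called in LSEC.

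Of 9 measured genes of heme and haemoglobin clearance, 1 rose and 1 fell in liver, and with equal totals 6 were higher and 1 lower. As deposited, 25.0% of all liver genes rose and 21.0% fell, and 2.86% of all LSEC genes fell. Cd163, the macrophage receptor for haemoglobin bound to haptoglobin, had 67.9, 23.1 and 73.2 normalized reads in NASH livers, against 2631, 2685 and 2732 in chow livers, and fell by 5.75 (limma adjusted p = 4.12e-06). The part of macrophage numbers in the Cd163 values was not tested. Blvra rose by 0.60 (0.00104), and Hmox2 was at -0.23 (0.0917, not called; 0.0196 without the first NASH liver). In LSEC 2 fell, Cd163 with a log2 fold change of -2.77 (0.0470) and the heme transporter Slc48a1 with -0.57 (0.0357). Cd163 there was lost with equal totals (0.0513) and without any 1 library (0.0688 to 0.130), and Slc48a1 with equal totals (0.0780) and without any library except the second chow one (0.0602 to 0.130). Lrp1, the hemopexin receptor, was at 1.27 (0.0888; 0.0232 by DESeq2 and 0.0205 without the first chow library).

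Mitochondrial iron and iron-sulphur cluster genes had 4 of 12 lower in liver and 1 of 12 lower in LSEC, with none higher. With equal totals the liver direction turned, with 5 higher and none lower. As deposited, the share called in liver was below the 46.0% of all liver genes, and 8.11% of all LSEC genes were called. In liver, Isca1, a cluster assembly protein, fell by 0.40 (limma adjusted p = 0.00383; 0.02 and 0.863 with equal totals). In LSEC, mitoferrin 1 (Slc25a37), the importer of iron into mitochondria, had 2321, 1927 and 1891 normalized reads with NASH and 4865, 4394 and 3675 on chow, and fell by 1.07 (0.0118; 0.0514 without the second and 0.0609 without the third NASH library). Slc25a28 (-0.58, 0.0720) and Iscu (-0.42, 0.192) were not called in LSEC.

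The direction of many small liver changes depended on the scaling. With library totals made equal, the median log2 fold change of all genes moved by 0.40 in liver and 0.14 in LSEC, and the calls over all liver genes split into 7880 higher and 904 lower, against 4179 higher and 3512 lower as deposited. Under that scaling 6 of the 10 members were called higher in liver and the same 2 as before lower. Under it, Tfrc (-1.35) and Tfr2 (-0.41) still fell and Steap3 (1.17) and Cp (0.95) still rose. The 4 added were Steap2 (0.71), Slc40a1 (0.65), Fth1 (0.39) and Hfe (0.38), the last pair at about the size of the shift itself. In the 6 pathway lists, 14 genes higher and 20 lower in liver as deposited became 33 higher and 4 lower.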

How the data were processed

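The authors deposited 1 table per tissue holding, for each gene, a normalized read signal in every library, a log2 fold change and a p-value with its adjusted form. The tools were STAR, HTSeq and DESeq2, besides FastQC and Seurat, on build mm10, per the submitters' processing notes. Versions are not given in the sources used. Dividing each library's deposited signal by its smallest step gave whole reads for 100% of values, within 0.01. In both tables, 22 gene names had been turned into dates, which were left out of the comparison of tissues, and 2 names were repeated.

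Each tissue was fitted alone with limma 3.58.1 (R 4.3.3) on log2(normalized reads + 1), with a variance trend and no filter, and two-sided p-values were adjusted over all genes by the Benjamini-Hochberg method. These log2 fold changes understate the change of genes with few reads. The difference between tissues was tested per gene with Welch-Satterthwaite degrees of freedom. The plan held edgeR ready in case of counts; the deposited unit is normalized, so limma was the main test. Replicates differed by a chi-square of 17.3 to 102 per degree of freedom, so none was a copy. Alternatives were edgeR 4.0.16 and DESeq2 1.42.0 on recovered reads, the authors' table, other pseudocounts, thresholds and filters, equal totals, a replicate block and leaving out each library.

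The members and lists were chosen with earlier results of these data known. Named genes are the members, up to 3 genes per pathway list and tissue with the smallest adjusted p, and the 3 nearest patterns of 4 members; some list genes are counted in their list and not reported singly here. Steps were tested on simulated data. An interval made from read counts covers only counting error.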

Additional observations from a re-analysis of the deposited data

Results flagged for a closer look

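For the results below, the log2 fold change of NASH over chow differed between liver and LSEC by the test of the difference itself (adjusted p under 0.05 over 15766 genes), a threshold that 19.5% of all genes passed. Values are liver minus LSEC on the log2 scale, so a negative value means a lower fold change in liver. Among the iron genes it was Tfrc, at -3.05. Among genes of the signal to hepcidin, the difference was 1.99 for Id1, 1.14 for Smad6 and 0.97 for Smad7, and it was -2.89 for Hfe2 and -2.74 for Il6ra. Among uptake genes and reductases it was -3.37 for Steap1, -1.65 for Slc39a14, 0.55 for Slc39a8 and 1.09 for Cyb561. Among genes of storage and sensing it was -0.96 for Ireb2, -0.96 for Ncoa4 and -0.54 for Aco1. In heme synthesis and clearance it was -0.88 for Alas1, -2.98 for Cd163 and 0.46 for Slc48a1. In mitochondria it was 1.31 for Slc25a37. Of these, Aco1 and Alas1 were called in neither tissue alone. The part of hepatocyte reads in the Hfe2 difference was not tested.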

How the results depend on the processing

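Tfrc, Tfr2, Steap3 and Cp in liver, and the Tfrc difference between tissues, kept direction and call under every alternative. With equal totals, the log2 fold change turned positive in liver for Hamp (0.26), Trf (0.34), Fth1 (0.39), Hfe (0.38), Fech (0.079), Hmox2 (0.19), Isca1 (0.019), Slc11a2 (0.31) and Atoh8 (0.33), and for the Fth1 difference between tissues (0.00089). Liver values of genes named above for LSEC turned positive too, for Aco1 (0.21), Alas1 (0.0022), Ftl1 (0.027), Urod (0.19), Slc48a1 (0.31) and Slc25a28 (0.12). The cause was not tested. With 1 library left out, the sign turned for Hamp in liver (-1.41 to 0.59; positive without the first or the second chow liver), Fth1 in liver (-0.11 to 0.025; without the second or the third NASH liver), Ftl1 in LSEC (-0.46 to 0.029; without the second chow library) Socs3 in LSEC (-0.24 to 0.92; without the first chow library), Atoh8 in liver (-0.39 to 0.074) and LSEC (-0.11 to 0.12), Cybrd1 in liver (-0.50 to 0.75), Scara5 in LSEC (-0.57 to 0.36) and Slc11a2 in LSEC (-0.020 to 0.10). The calls over all liver genes, 7691, came to 4960 at a threshold of 0.01 and 5863 to 7407 with 1 library left out. Over all LSEC genes, 1319 calls came to 2503 with DESeq2, 2539 in the authors' deposited table, 126 at 0.01 and 124 to 1171 with 1 library left out. Among members in liver, 6 were higher with equal totals, and 2 to 3 were higher and 2 to 3 lower with 1 library left out. Among members in LSEC, 2 were higher with equal totals, 3 with DESeq2, 3 in the authors' table, 0 at 0.01 and 0 to 2 with 1 library left out; 1 was lower with DESeq2 and 1 in the authors' table. The difference between tissues was called for 3073 genes, and for 1840 to 3171 with 1 library left out. Members with the higher fold change in liver numbered 0, and 2 with a normal distribution, 1 with edgeR's interaction term, 2 with equal totals and 0 to 1 with 1 library left out. Those with the higher fold change in LSEC numbered 1, and 4 with a normal distribution and 1 to 4 with 1 library left out. In the pathway lists in liver, 14 higher and 20 lower became 33 and 4 with equal totals, 12 lower at 0.01, and 12 to 15 higher and 13 to 21 lower with 1 library left out. In LSEC, 6 higher and 7 lower became 1 higher and 1 lower at 0.01, 4 lower with equal totals, 11 lower with DESeq2, 11 in the authors' table, and 1 to 7 higher and 1 to 5 lower with 1 library left out. With the replicate number as a block, 7447 liver genes were called and the members' calls, 2 higher and 2 lower, were those of the unblocked fit. Same-numbered liver libraries did not deviate together (correlations of -0.01, -0.02 and 0.10 over 14324 genes), and the first NASH liver correlated best with the second chow liver (0.09), so the numbers were not taken as pairs. No paired analysis was possible for LSEC because its columns carry no replicate numbers. With 3 libraries in each group, the interval for Hamp was -2.01 to 1.70 in liver and -0.10 to 3.89 in LSEC on the log2 scale, so changes inside it were not detectable.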
